A study of Glycine max with 8 samples.

Results

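The regions described here are the places on soybean (Glycine max) chromosomes 1 and 11 where both biological replicates of a chromatin immunoprecipitation sequencing (ChIP-seq) experiment had a peak. They were found by joining every chromosome 1 or chromosome 11 peak of the replicate 1 list with each replicate 2 peak that it overlapped by at least 1 bp. Chromosome 1 held 740 such shared regions and chromosome 11 held 820, together 1560 of the 15872 shared regions of the series. The other 18 chromosomes held 14232, and the rest lay on scaffolds. The samples were embryos of cultivar Williams 82, dissected from seeds at the mid-maturation stage. For the ChIP group, chromatin was collected with an antibody that had been raised against a stretch of the GLYMA.08G357600 protein. The input group was chromatin from nuclear extracts set aside without antibody. Each group had 4 libraries, from 2 biological replicates sequenced on 2 lanes each. The labels list no mutation, transgene or treatment other than formaldehyde fixation for either group, and whole embryos were used with no cell type separated.

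In ChIP-seq, DNA fixed to a protein is collected with an antibody and sequenced, and places where fragments pile up above the local input background are called as peaks. A soybean chromosome typically has gene-rich outer parts and a gene-poor, repeat-rich middle around the centromere. Much of the soybean genome is present in duplicated blocks left by ancient whole-genome duplications. The design asked where the protein sits on the genome. The comparison made here is between chromosomes: how many regions each carried, how they lay along the length, how strong the strongest were and how far apart they stood.

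Every value comes from 2 deposited lists of peaks, 1 for each ChIP biological replicate. Fold enrichment is the ratio that the authors' peak caller gave at the summit of a peak over its local background, and the summit pileup is the number of overlapping fragments there. The last peak end found on a chromosome served as its length, 56.8 Mb for chromosome 1 and 34.6 Mb for chromosome 11. By that measure chromosome 1 was the second longest of the 20 and chromosome 11 the shortest. No test was run, since a chromosome is a single item and regions on it are not replicates. Percentages carry Wilson 95% intervals and densities exact Poisson 95% intervals, which cover counting error only. The values of each chromosome are set beside the spread over the other 18.

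Shared regions were sparse on chromosome 1 and dense on chromosome 11. Chromosome 1 had 13.0 regions per Mb (interval 12.1 to 14.0) and chromosome 11 had 23.7 (interval 22.1 to 25.4), against a mean of 16.7 ± 3.29 over the other 18 chromosomes (SD, n = 18). Chromosome 1 was thus 19th in density and chromosome 11 had place 2 of 20, and the ratio of chromosome 1 to chromosome 11 was 0.550. Both lists gave this order on their own. Replicate 1 had 17.6 peaks per Mb on chromosome 1 (1002 peaks) and 31.9 on chromosome 11 (1104 peaks). Replicate 2 had 15.1 on chromosome 1 (858 peaks, the lowest density of the 20) and 27.2 on chromosome 11 (940 peaks). Taken as a pair, the 2 chromosomes had 17.1 regions per Mb, against 16.6 on the other 18 pooled, a difference of well under the SD between the others. Shared regions covered 0.647% of the length of chromosome 1 and 1.198% of chromosome 11.

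**Figure D1:**
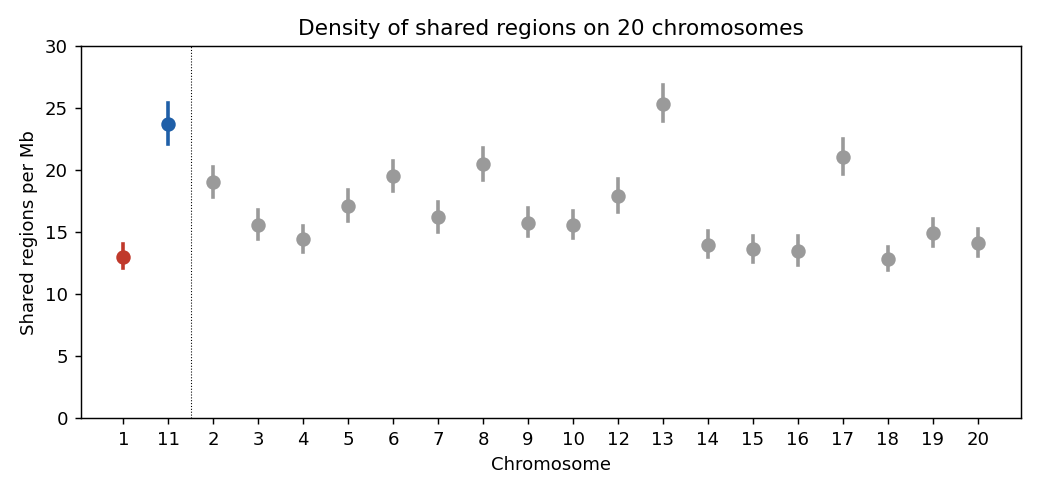
Shared regions per Mb (vertical axis) on each of 20 chromosomes (horizontal axis), with chromosome 1 in red, chromosome 11 in blue and the other 18 in grey. Points are densities and vertical lines exact Poisson 95% intervals; chromosome 1 lies at 13.0 and chromosome 11 at 23.7.

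The low density of chromosome 1 was found more than 5 Mb from its ends and not nearer to them. Within 5 Mb of the nearest end, chromosome 1 had 367 regions, or 36.7 per Mb, and chromosome 11 had 420, or 42.0 per Mb. The other 18 had a mean of 31.8 ± 5.60 per Mb there (SD, n = 18; range 20.3 to 39.1). In these end zones chromosome 1 had place 7 of 20 and chromosome 11 the highest density. Farther than 5 Mb from both ends the place of chromosome 1 changed. There it had 373 regions over 46.8 Mb, or 7.97 per Mb, the lowest of the 20. Chromosome 11 had 400 regions over 24.6 Mb, or 16.3 per Mb, place 3 from the highest, and the other 18 had a mean of 12.7 ± 4.30 (SD, n = 18; range 8.46 to 26.8). Chromosome 1 therefore had more than the mean of the other 18 near its ends and fewer than any of them beyond 5 Mb. The length that lies in that interior also differs, since it is 46.8 Mb on chromosome 1 and 24.6 Mb on chromosome 11.

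Finer zones showed where the density of the chromosomes parted. In the 2.5 Mb nearest each end the densities were 37.4 per Mb on chromosome 1 and 39.8 on chromosome 11, against a mean of 32.6 ± 5.49 on the others (SD, n = 18). From 2.5 to 5 Mb they were 36.0 and 44.2, against 31.0 ± 6.33, and chromosome 11 was the highest of the 20. From 5 to 10 Mb they were 19.4 and 26.6, against 23.8 ± 3.01. Chromosome 1 had thus already place 19 of 20 between 5 and 10 Mb, where chromosome 11 had place 3. Farther than 10 Mb from either end they were 4.86 and 9.17, against 8.57 ± 5.72. In all 4 zones chromosome 1 was below chromosome 11, by the least in the outermost zone.

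The layouts were lopsided in opposite directions. The first 20% of the length held 219 regions on chromosome 1 and 320 on chromosome 11, and the last 20% held 354 on chromosome 1 and 189 on chromosome 11. Chromosome 1 was therefore denser at its end by coordinate (31.2 per Mb) than at its start (19.3 per Mb). Chromosome 11 was denser at its start (46.2 per Mb) than at its end (27.3 per Mb). Its outermost 10% stretches were nearly equal, at 41.9 per Mb (145 regions) and 41.3 per Mb (143 regions). The imbalance lay in the stretches next to them, at 50.6 per Mb (175 regions) and 13.3 per Mb (46 regions). Such an imbalance was not particular to this pair. Among the other 18, the first and last 20% held 19 and 370 regions on chromosome 13 and 389 and 108 on chromosome 15. On chromosome 18 they were nearly equal, at 295 and 280. The outer 20% at both ends together held 77.4% of regions on chromosome 1 (573, interval 74.3% to 80.3%) and 62.1% on chromosome 11 (509, interval 58.7% to 65.3%). The other 18 had a mean of 69.5% ± 11.2 (SD, n = 18). The intervals of the 2 chromosomes did not overlap, with chromosome 1 at place 3 of 20 and chromosome 11 at place 17. The stretches compared differ in size, at 11.4 Mb per end on chromosome 1 and 6.92 Mb on chromosome 11. In Mb, the median distance of a region from its nearest end was similar, at 5.06 on chromosome 1 and 4.85 on chromosome 11. In the inner 60% the density was 4.90 per Mb on chromosome 1 and 15.0 on chromosome 11.

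**Figure D2:**
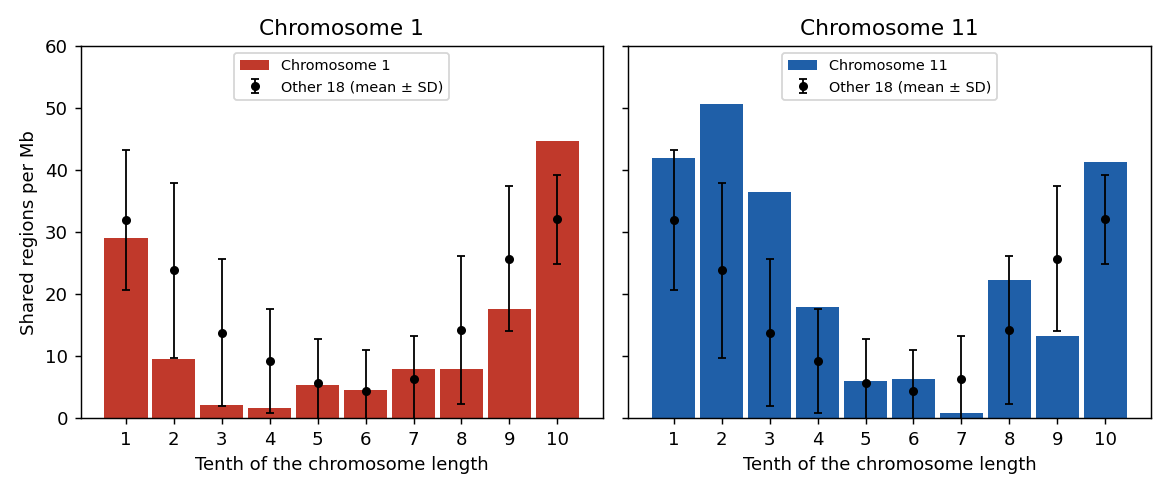
Shared regions per Mb (vertical axis) in each of 10 equal stretches of the chromosome length (horizontal axis), chromosome 1 in red on the left and chromosome 11 in blue on the right. Black points and lines are the mean and SD over the other 18 chromosomes; chromosome 1 is highest in its last stretch (44.7 per Mb) and chromosome 11 in stretch 2 (50.6 per Mb).

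The sparse parts sat in different places. With each chromosome split into 10 equal stretches, those numbered 3 and 4 were the emptiest on chromosome 1, with 12 and 9 regions (2.11 and 1.58 per Mb). Stretches 5 to 8 of chromosome 1 held 26 to 45 regions each, stretch 9 held 100 and stretch 10 held 254. On chromosome 11 the first 3 stretches held 145, 175 and 126 regions, and stretch 7 held 3 (0.867 per Mb). Stretch 8 of chromosome 11 held 77 regions, more than stretch 9, which held 46. This island was plain in bins of 1 Mb. The bin from 26000001 held 34 regions and its neighbours from 24000001 and 25000001 held 18 and 17, while the bins from 28000001 and 29000001 held 7 and 6. On chromosome 1 smaller islands stood in the interior, with 17 regions in the bin from 36000001 and 19 in the bin from 44000001.

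Dense bins made up much of both chromosomes' regions. On chromosome 1, 6 of 57 bins held at least 40 regions and together 284 of the 740. They were the bin from 1000001, with 47 regions, and the 5 bins in a row from 51000001, with 51, 49, 47, 46 and 44. On chromosome 11, 8 of 35 bins did, with 387 of the 820. The densest of these, from 3000001, held 60, and the bins beside it from 4000001 and 2000001 held 57 and 51. Over the other 18 chromosomes together, 90 of 864 bins held at least 40 regions, with 4098 of the 14232. That share of bins was close to the one on chromosome 1 and lower than on chromosome 11. The share of regions was lower than on either. Bins of at most 5 regions were 43.9% of those on chromosome 1 and 22.9% of those on chromosome 11, against a mean of 36.1% ± 7.64 over the others (SD, n = 18). The longest stretch with no peak in either list ran from 14774777 to 16908668 on chromosome 1 (2.13 Mb), followed there by 17154660 to 18531344 (1.38 Mb) and 18532032 to 19744393 (1.21 Mb). On chromosome 11 the longest were 21870674 to 23025382 (1.15 Mb), 19262064 to 20331672 (1.07 Mb) and 12868077 to 13877016 (1.01 Mb). The 3 of chromosome 1 thus followed one another closely, on the side of its first end. How well reads could be placed in these stretches was not tested, so they are places without a called peak and no more.

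The median region had much the same strength on both chromosomes. The median fold enrichment in replicate 1 was 6.84 on chromosome 1 and 6.84 on chromosome 11, against a mean of medians of 6.97 ± 0.158 on the other 18 (SD, n = 18). In replicate 2 it was 7.21 on chromosome 1 and 6.95 on chromosome 11, against 7.29 ± 0.202. The median pileups were also close, at 39 fragments on both chromosomes in replicate 1, and 30 and 29.5 in replicate 2. A fold of at least 10 in both lists was found at 172 regions of chromosome 1 (23.2%, interval 20.3% to 26.4%) and 192 of chromosome 11 (23.4%, interval 20.6% to 26.4%), where the background share over all 15872 regions was 24.4%. Chromosome 1 and chromosome 11 were thus both near the background at that level. By the percentile rank of fold, averaged over both lists, the median region was low on both chromosomes. It was at 45.8 on chromosome 1 and at 44.9 on chromosome 11, the lowest of the 20. The other 18 had a mean of 48.1 ± 1.32 (SD, n = 18).

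The chromosomes drew apart among the strongest regions. The 95th percentile of fold on chromosome 1 was 22.2 in replicate 1 and 23.5 in replicate 2, the lowest of the 20 in both lists. On chromosome 11 it was 24.7 (place 13) and 29.4 (place 4), and the other 18 had means of 25.3 ± 2.00 and 27.2 ± 2.22 (SD, n = 18). Enrichment of 20 or more in both lists was seen at 43 regions of chromosome 1, or 5.81% (interval 4.34% to 7.74%), and at 64 of chromosome 11, or 7.80% (interval 6.16% to 9.84%). The background share over all 15872 regions was 7.14%, which lay inside both intervals, so these counts do not separate either chromosome from the series. Per Mb, such regions numbered 0.757 on chromosome 1 and 1.85 on chromosome 11, against 1.19 on the other 18 pooled. At a limit of 40 there remained 3 regions on chromosome 1 (0.405%, interval 0.138% to 1.19%), 12 on chromosome 11 (1.46%, interval 0.839% to 2.54%) and 152 on the other 18 (1.07%, interval 0.912% to 1.25%), with intervals for chromosomes 1 and 11 that overlapped. At 50 the counts were 0 of 740 on chromosome 1 (interval up to 0.516%), 8 of 820 on chromosome 11 (0.976%, interval 0.495% to 1.91%) and 37 of 14232 elsewhere (0.260%, interval 0.189% to 0.358%). The intervals of chromosomes 1 and 11 overlapped slightly at 50 as well. At 60 chromosome 1 had 0 and chromosome 11 had 1 (0.122%, interval 0.0215% to 0.688%). The other 18 had 10 at that limit (0.0703%, interval 0.0382% to 0.129%). The limits of 40, 50 and 60 were picked after the values were seen, and these counts are a description. Of the 100 regions with the highest mean rank in the series, scaffolds included, 0 were on chromosome 1 and 9 on chromosome 11, which held 740 and 820 of the 15872 regions. The other 18 chromosomes had 2 to 8 of them each. The absence of top regions on chromosome 1 was known before the measures were chosen, so this count is a description as well. The strongest region of chromosome 1 had place 101 on the 20 chromosomes, shortly past the limit of 100.

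**Figure D3:**
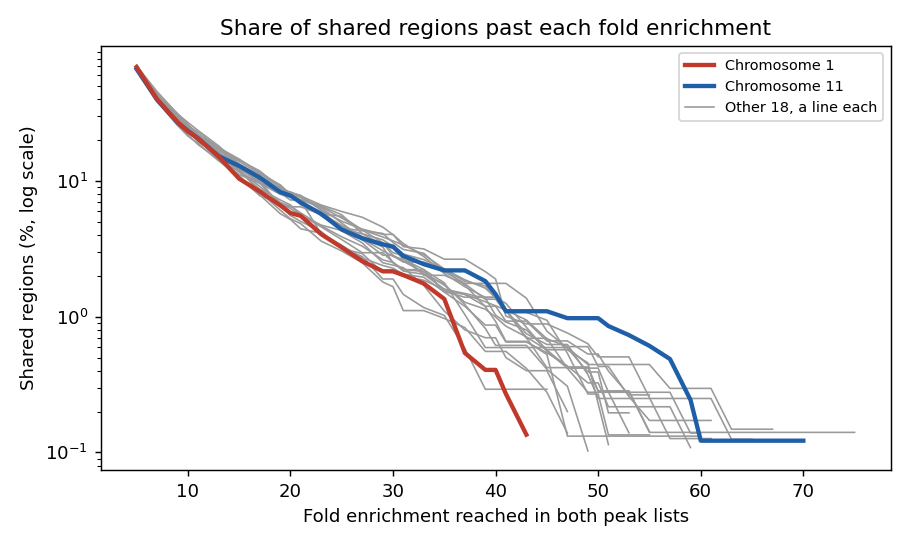
Percentage of the shared regions of a chromosome (vertical axis, log scale) whose fold enrichment reached the value on the horizontal axis in both peak lists, with chromosome 1 in red, chromosome 11 in blue and each of the other 18 as a grey line. The lines run together up to a fold of about 10, where both chromosomes are at 23.2% and 23.4%. Beyond 40 the line of chromosome 1 ends first. That of chromosome 11 is the highest at folds of 45 to 55, but at 60 it is at 0.122%, below the other lines still drawn.

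The highest fragment numbers, without the background in the denominator, put chromosome 1 low but chromosome 11 near the others. The highest pileups on chromosome 1 were 277 fragments in replicate 1 and 235 in replicate 2, and on chromosome 11 they were 347 and 309. The other 18 had mean highest pileups of 346 ± 35.9 in replicate 1 and 314 ± 43.3 in replicate 2 (SD, n = 18), so those of chromosome 11 were ordinary. The 95th percentile of pileup in replicate 1 was 129 on chromosome 1 and 156 on chromosome 11, against a mean of 146 ± 10.3 on the other 18 (SD, n = 18). In replicate 2 it was 107 on chromosome 1 and 124 on chromosome 11, against 121 ± 9.04. By this percentile of pileup chromosome 11 had place 4 of 20 in replicate 1 and place 9 in replicate 2. By the same percentile of fold it had places 13 and 4. The median local background under the regions was 4.46 fragments on chromosome 1 and 4.59 on chromosome 11 in replicate 1, and 3.20 and 3.28 in replicate 2. The ratio of these median backgrounds, chromosome 1 over chromosome 11, was 0.971 in replicate 1 and 0.975 in replicate 2. For the highest pileups, each from a single region, the ratio was 0.798 and 0.761. At those single regions the background was higher on chromosome 1, at 5.25 in replicate 1 and 3.69 in replicate 2. On chromosome 11 it was 3.91 and 2.74 there.

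The strongest region of chromosome 1 had place 101 among the 15792 shared regions on the 20 chromosomes. It lay from 42338791 to 42339826, with folds of 44.5 in replicate 1 and 50.3 in replicate 2 and pileups of 277 and 235 fragments. It stood in the sparse interior, with 1 other region within 50 kb. The second, from 35323176 to 35323808, was interior as well (folds of 40.7 and 47.5, pileups of 200 and 177), and so was the sixth, from 32031110 to 32031679 (35.3 and 41.9). The sixth was only 570 bp wide and had a neighbour with folds of 4.28 and 5.61, its summit 0.537 kb away.

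The other 7 of the 10 highest on chromosome 1 lay in its outer 20% stretches. The last 20% held 4 of them. These were the third, from 54357093 to 54357840 (folds of 45.9 and 41.3), the fourth, from 55033910 to 55034882 (46.0 and 36.3), the fifth, from 54412388 to 54413433 (38.1 and 40.5), and the seventh, from 51350851 to 51351664 (33.1 and 46.2). The first 20% held the eighth, from 8126663 to 8128062 (33.6 and 43.0), the ninth, from 1426675 to 1427611 (35.7 and 38.8), and the tenth, from 473295 to 474123 (40.2 and 35.2). All 10 had summits that differed by at most 38 bp between the lists, with a median of 7 bp. The replicates ranked them differently: the fold of the fourth was the highest of the chromosome in replicate 1, but in replicate 2 it was below that of 8 of the other 9.

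The strongest region of chromosome 11 had place 2 among the 15792, next to the end of the chromosome. It ran from 34413697 to 34415199, was 1503 bp wide and had pileups of 347 fragments in replicate 1 and 309 in replicate 2, with folds of 70.9 and 82.8. The second strongest of the chromosome, from 34377519 to 34378749 (folds of 59.2 and 66.1, pileups of 302 and 275), lay just before it. Both were within 0.230 Mb of the last peak of the chromosome. The first 20% held the third, from 2159615 to 2160542 (57.1 and 67.3), the fifth, from 2852647 to 2853824 (51.2 and 67.9), and the eighth, from 5105087 to 5106366 (57.9 and 53.0). The sixth, from 30113905 to 30114793 (57.7 and 60.5), was in the last 20%.

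The remaining 4 of the 10 highest on chromosome 11 were interior. The fourth, from 26947350 to 26948052 (56.3 and 64.1), and the tenth, from 26473083 to 26473909 (40.7 and 55.3), lay in the island of 34 regions in the bin from 26000001. The seventh, from 12182634 to 12183396 (50.6 and 61.7), stood alone, with no other region within 50 kb and its nearest neighbour at 50.4 kb. The ninth lay from 10447031 to 10447717 (45.5 and 54.3). Summits of the 10 differed by at most 48 bp between lists, with a median of 16 bp. In replicate 2 each of the 10 on chromosome 11 had a higher fold (53.0 to 82.8) than any of the 10 on chromosome 1 (35.2 to 50.3). In replicate 1 the ranges overlapped, at 33.1 to 46.0 on chromosome 1 and 40.7 to 70.9 on chromosome 11. The 10 highest on chromosome 1 ranked from 101 to 291 among the 15792, and those on chromosome 11 from 2 to 107. Genes and bases at these places are not reported, because no genome of the build of these coordinates was used here.

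**Figure D4:**
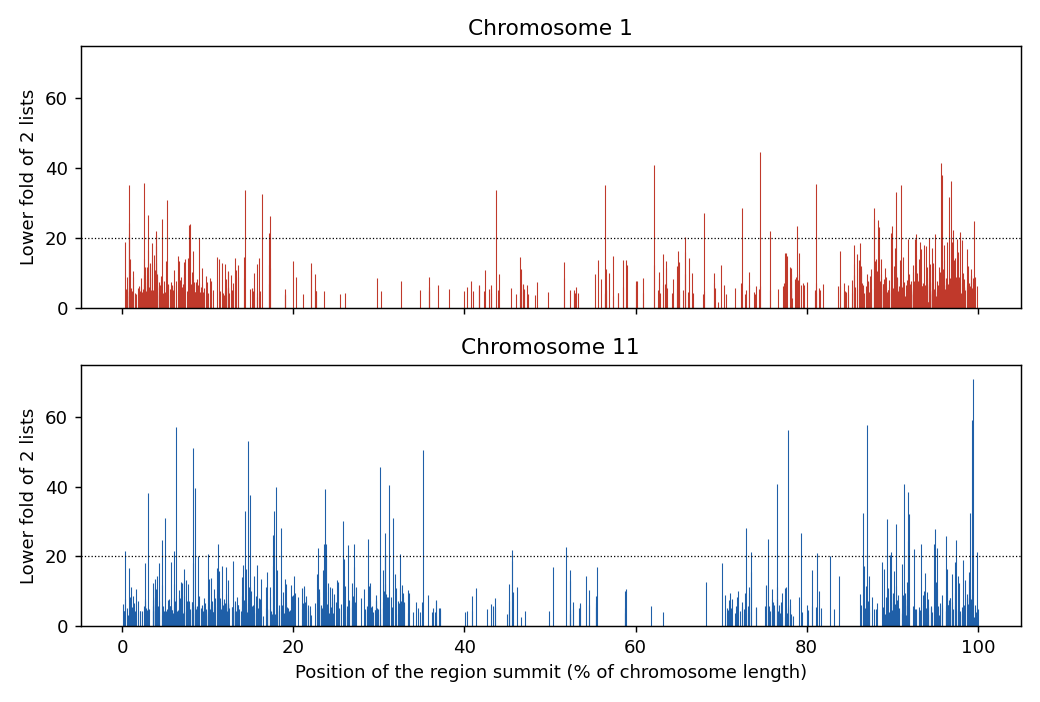
Lower of the 2 fold enrichments of each shared region (vertical axis) by the position of its summit as a percentage of chromosome length (horizontal axis), chromosome 1 in red above and chromosome 11 in blue below. The dotted line marks a fold of 20, passed in both lists by 43 regions on chromosome 1 and 64 on chromosome 11.

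Taken over both ends together, the outer share of strong regions was close to that of the rest. On chromosome 11 the split between the first and last 20% was not alike. Of the 43 regions of chromosome 1 with a fold of at least 20 in both lists, 79.1% (interval 64.8% to 88.6%) were in the outer 20% stretches, against 77.3% of its other 697. On chromosome 11 it was 64.1% of 64 (interval 51.8% to 74.7%), against 61.9% of the other 756. Its strong regions numbered 18 in the first 20% and 23 in the last, where its other regions numbered 302 and 166. Within chromosome 11 the strong regions made up 23 of 189 or 12.2% (interval 8.25% to 17.6%) in the last 20%, against 18 of 320 or 5.62% in its first 20% (interval 3.59% to 8.72%). Its inner part had 23 of 311, or 7.40%. The last 20% of chromosome 1, which was denser than its first, had 19 of 354 strong regions, or 5.37% (interval 3.46% to 8.23%), and its first 20% had 15 of 219, or 6.85% (interval 4.19% to 10.99%). The intervals of the first and last 20% overlapped on both chromosomes, slightly on chromosome 11 and widely on chromosome 1.

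Regions stood farther apart on chromosome 1. The median distance between neighbouring summits was 23.0 kb on chromosome 1 and 16.8 kb on chromosome 11, the shortest of the 20, against a mean of 22.2 ± 3.03 kb on the other 18 (SD, n = 18). The middle 50% of distances ran from 7.82 to 61.3 kb on chromosome 1 and from 5.79 to 40.2 kb on chromosome 11. The medians differed by more in the interior than near the ends. Within 5 Mb of an end the medians were 17.4 kb on chromosome 1 and 14.6 kb on chromosome 11 (18.5 ± 3.01 kb on the others), and beyond 5 Mb they were 38.0 and 20.1 kb (27.2 ± 6.66 kb on the others). Distances over 200 kb numbered 68 on chromosome 1, the most of any of the 20, and 19 on chromosome 11. They took up 59.5% of the length of chromosome 1 and 33.0% of chromosome 11, against a mean of 47.2% ± 7.90 (SD, n = 18).

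Among shared regions the chromosomes differed little at short range. A neighbouring summit within 2 kb was found for 131 regions of chromosome 1, or 17.7% (interval 15.1% to 20.6%), and 148 of chromosome 11, or 18.05% (interval 15.6% to 20.8%). The other 18 had a mean of 17.1% ± 2.03 (SD, n = 18). The difference between the chromosomes was less than the SD over the others, and their intervals overlapped. In single lists the shares and their difference were larger: without ChIP replicate 2, the peaks of replicate 1 alone gave 23.4% on chromosome 1 and 27.2% on chromosome 11, and without ChIP replicate 1 those of replicate 2 gave 21.1% and 23.2%. The intervals overlapped in each list (20.8% to 26.1% and 24.6% to 29.9% in replicate 1, 18.5% to 24.0% and 20.6% to 26.0% in replicate 2). Widening the limit to 5 kb gave 34.3% on chromosome 1 (interval 31.0% to 37.8%) and 40.1% on chromosome 11 (interval 36.8% to 43.5%), again with intervals that overlapped. In chromosome 1, close neighbours made up 20.1% of the dense last 20% of the length and 15.6% of the sparse inner part, with intervals that overlapped (16.2% to 24.5% and 10.9% to 21.8%).

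**Figure D5:**
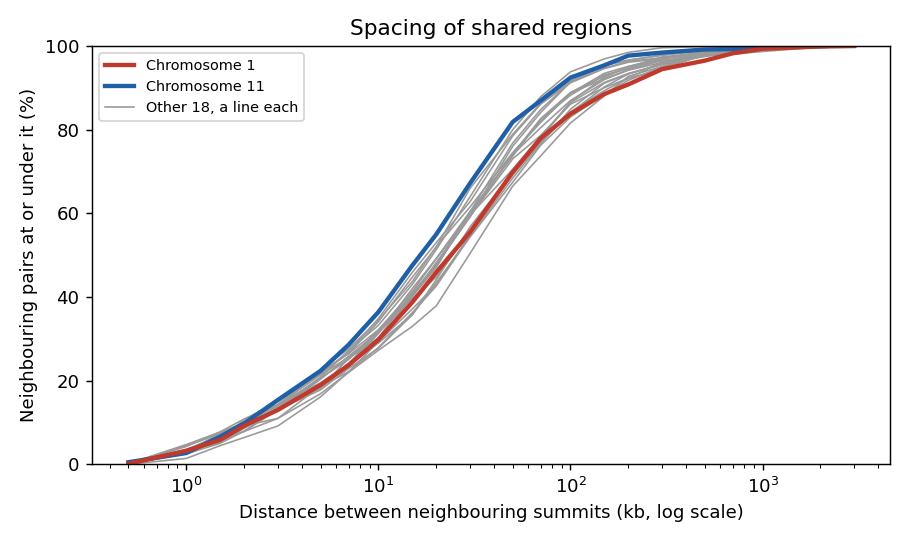
Percentage of neighbouring pairs of shared regions (vertical axis) whose summits lie at or under the distance on the horizontal axis (kb, log scale), with chromosome 1 in red, chromosome 11 in blue and each of the other 18 as a grey line. The lines nearly meet up to 2 kb; the median distance is 23.0 kb on chromosome 1 and 16.8 kb on chromosome 11.

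The tightest neighbours and longest chains were local features of both chromosomes. The closest summits on chromosome 1 were 483 bp apart, between a region from 53615891 to 53616267 (folds of 3.67 and 4.81) and one from 53616330 to 53616866 (12.6 and 12.8). On chromosome 11 they were 451 bp apart, between 10614126 to 10614503 (4.91 and 5.97) and 10614584 to 10615015 (10.2 and 7.81). In each of these closest pairs the region with the higher coordinate had the higher fold in both lists. This did not hold in the next closest pairs. The region with the higher coordinate had the lower fold in both lists in the second pair of chromosome 1 and the third of chromosome 11. In the third pair of chromosome 1 and the second of chromosome 11 the lists differed. Chains of at least 4 summits, each within 5 kb of the next, numbered 4 on chromosome 1 and 8 on chromosome 11, against a mean of 7.11 ± 4.47 on the others (SD, n = 18). All 4 of chromosome 1 lay in its last 20%.

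The longest chain of chromosome 1 had 6 regions over 7.55 kb, from 55139412 to 55146966. Their replicate 1 folds, in order along the chromosome, were 4.03, 9.10, 11.02, 7.85, 6.28 and 22.2, and the replicate 2 folds were 4.69, 12.0, 11.5, 6.92, 7.03 and 22.7. The strongest was thus at the far edge, and the lists agreed on it and on the weakest. Chromosome 11 had no chain so long but 3 of 5 regions. That from 4278935 to 4284731 had replicate 1 folds of 6.36, 15.8, 8.51, 6.78 and 6.23. That from 10611664 to 10617861 had 2.98, 35.4, 4.91, 10.2 and 4.80, a single strong region among weak ones. The third, from 31763830 to 31773286, held 2 strong neighbours, with 8.87, 12.6, 53.0, 24.5 and 7.42 in replicate 1 and 12.2, 18.4, 38.4, 41.1 and 8.46 in replicate 2. The lists named different regions of that chain as the strongest, 2.58 kb apart, although both had more fragments at the first of these (270 and 242 against 196 and 175).

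Widths were similar, with medians of 459.5 bp on chromosome 1 and 450 bp on chromosome 11, against a mean of 453 ± 8.77 bp (SD, n = 18). Regions over 1000 bp made up 2.43% of chromosome 1 (18) and 2.93% of chromosome 11 (24). The widest of chromosome 1 lay from 3715105 to 3717531 and was 2427 bp wide, with 1 peak in replicate 1 and 2 in replicate 2. After it came regions from 50305243 to 50306699 (1457 bp) and from 49051957 to 49053389 (1433 bp), also with 1 peak and 2 peaks. On chromosome 11 they lay from 5112744 to 5114845 (2102 bp), at the strongest region of the chromosome (1503 bp) and from 31081018 to 31082480 (1463 bp). Regions that joined more than 1 peak of a list numbered 8 on chromosome 1 (1.08%) and 17 on chromosome 11 (2.07%, interval 1.30% to 3.29%), the highest percentage of the 20. Width and joining depend on how the peak caller merges summits. They also depend on the rule used here, which joins peaks of the 2 lists that overlap by at least 1 bp.

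The replicates overlapped to a similar extent on both chromosomes. On chromosome 1, 74.0% of replicate 1 peaks and 87.1% of replicate 2 peaks were in shared regions, and on chromosome 11 it was 74.9% and 88.4%. Summits of shared regions differed by a median of 30 bp on chromosome 1 and 32 bp on chromosome 11. Between the lists, fold across regions gave a Spearman rho of 0.800 on chromosome 1 and 0.782 on chromosome 11, the lowest of the 20, and the pileups a rho of 0.877 and 0.873. Regions share libraries, so these are descriptions. The median ratio of replicate 1 to replicate 2 pileup was 1.25 on chromosome 1 and 1.24 on chromosome 11. Peaks found in replicate 1 alone numbered 261 on chromosome 1 and 277 on chromosome 11, with median folds of 4.22 and 4.25. Those in replicate 2 alone numbered 111 and 109, with median folds of 4.81 and 4.54. The strongest of them were, on chromosome 1, from 54767755 to 54768104 in replicate 2 (fold 8.64) and, on chromosome 11, from 26490233 to 26490730 in replicate 1 (fold 8.77). That peak of chromosome 11 stood in the bin of 34 regions from 26000001.

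A few regions of chromosome 1 sat on a very high local background. More than 5 times the lowest background of the list was found in both lists at 3 regions of chromosome 1 and at 0 of chromosome 11, against a mean of 1.56 ± 1.38 on the others (SD, n = 18). They lay from 39578878 to 39579665, from 53487423 to 53487672 and from 53488140 to 53488548. Their backgrounds in replicate 1 were 144, 122 and 169 fragments, and their pileups 232, 183 and 257. The folds were only 1.61, 1.49 and 1.52 in replicate 1 and 1.94, 1.58 and 1.87 in replicate 2, so these were the weakest regions of the chromosome by fold although their pileups were high. In replicate 1 all 3 pileups lay within the range of its 10 strongest regions (164 to 277). In replicate 2 they were 204, 133 and 223, against a range of 156 to 235, so the second of them fell below it. The last 2 were neighbours, 0.717 kb apart, in the dense last 20%. Whether these places are true sites was not tested.

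None of the outermost shared regions had a fold of 20 in either list. The first on chromosome 1, from 205282 to 205727, had folds of 19.7 and 18.7, and the first on chromosome 11, from 50726 to 51198, had 7.54 and 6.41. The last on chromosome 1, from 56724834 to 56725121, had 6.06 and 6.51, and the last on chromosome 11, from 34607394 to 34607776, had 5.07 and 4.81. Of these 4 outermost regions, the first on chromosome 1 was the only one with a fold above 10.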

How the data were processed

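Peak lists of 2 ChIP biological replicates were used; reads of both lanes appear joined in each, per the labels' descriptions. The input libraries have no list of their own here, and how they entered the peak calling is not given. Per the submitters' processing notes, Bowtie 0.12.7 and MACS2 were the tools. Their settings, and the build of the coordinates, are not given in those notes or the labels. The authors deposited for each peak a fold enrichment (a ratio at the summit over local background), −log10 p-values and q-values, and a score that follows the −log10 q. These are the peak caller's own values. Total read numbers are not used here.

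From these, summit pileup and local background were solved from fold and −log10 p together. Every one of the 21196 and 18385 peaks gave a whole pileup that returned the deposited −log10 p within 0.001. The lowest background was 3.91 fragments in replicate 1 and 2.74 in replicate 2. A region with several peaks from 1 list took its values from the one of highest fold, and its summit was placed midway between the 2 lists. To order regions, the percentile ranks of fold in both lists were averaged. Coordinates count from 1.

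On each chromosome the named regions are the 10 highest by rank, the 3 widest, the densest bins and longest empty stretches, the longest chains, the closest neighbours, those with background over 5 times the lowest, the first and last, and the strongest peaks of 1 list. The islands, the bins of few regions beside them and the limits of 40, 50 and 60 were picked after their values were seen. The chromosomes, lists and measures were chosen with earlier results of these data known, among them the density of both and the absence of top regions on chromosome 1. The steps were tested on simulated data. Python 3.11.15, numpy 2.4.6, pandas 2.3.3 and scipy 1.17.1 were used.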

Additional observations from a re-analysis of the deposited data

How the results depend on the processing

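Of 69 alternatives run over 11 results, 31 moved by less than their error, or by under 1.5 times for a count; 2 of the 69 (ranking by pileup) were chosen after seeing the data. Requiring an overlap of 50% of the shorter peak changed none of the 11 beyond that. The density ratio of chromosome 1 to chromosome 11 stayed between 0.548 and 0.566 throughout. With −log10 q of at least 10, regions numbered 492 on chromosome 1 and 530 on chromosome 11, the ratio was 0.566, strong shares were 8.74% and 12.1%, shares with a neighbour within 2 kb 9.55% and 11.3%, and median spacings 37.2 and 27.4 kb. With peaks above the median fold of each list, these were 353 and 388 regions, a ratio of 0.554, 12.2% and 16.5%, 7.08% and 7.99%, and 53.8 and 38.55 kb. Both settings leave fewer regions, and the cause of the shifts was not tested. Other limits gave other shares by construction: 56.6% and 35.1% in the outer 10% at each end, 23.2% and 23.4% with a fold of at least 10, 3.65% and 5.73% in the top 5% by rank of fold, 4.05% and 5.85% in the top 5% by rank of pileup, and 34.3% and 40.1% with a neighbour within 5 kb. Leaving out a ChIP replicate, so that every peak of the other list counted, gave ratios of 0.553 to 0.556, shares with a close neighbour of 21.1% to 23.4% on chromosome 1 and 23.2% to 27.2% on chromosome 11, and spacings of 17.0 to 19.9 kb and 11.7 to 14.2 kb. It gave strong shares of 4.99% to 7.58% and 6.34% to 8.72%. No paired analysis was possible because the lists used hold ChIP peaks only, 1 per biological replicate.

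Chromosome lengths end at the last peak, and depth per library is not known. With 2 lists, counting intervals do not cover variation between embryos.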
